A study of Mus musculus with 10 samples.

Results

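A set of 10 genes of hepatic fatty acid synthesis was followed in liver RNA of wild-type mice and of Ndrg3 LKO mice. They were chosen by gene symbol: *Srebf1* and *Mlxipl*, which encode the transcription factors SREBP1 and ChREBP, and *Acly*, *Me1*, *Acaca*, *Acacb*, *Fasn*, *Elovl6*, *Scd1* and *Thrsp*. All 10 were found among the 24052 gene symbols of the count files. The series holds 1 RNA sequencing library from each of 10 livers, 5 per genotype, and both groups were labelled C57BL/6 (C57BL/6N in the breeding methods) and fed ad libitum on normal chow. Ndrg3 LKO mice lack exon 4 of *Ndrg3* in cells that express Cre recombinase from the albumin promoter, a promoter active in hepatocytes, and the loss of *Ndrg3* in single cell types of the liver was not measured here. The controls were wild-type littermates. In the last cross described, 1 parent was homozygous for the floxed *Ndrg3* allele, so its pups carry at least 1 floxed allele, and the floxed and Cre genotype of each control liver is not given. The methods describe livers from mice 8 to 10 weeks old, while a legend for the same livers has 10 to 12 weeks. Whether same-numbered livers came from the same litter is not stated.

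In the fed liver, acetyl-CoA made from citrate by ATP citrate lyase is carboxylated to malonyl-CoA, joined into palmitate by fatty acid synthase, and then elongated and desaturated. NADPH for the synthase comes from malic enzyme and from the pentose phosphate pathway. SREBP1 is made as a membrane-bound precursor that is cut and released in response to insulin and sterol status, and it binds sterol regulatory elements of lipogenic genes. ChREBP responds to sugar phosphates and binds carbohydrate response elements built from E-box-like sequences. *Thrsp* encodes Spot 14, a small protein of lipogenic tissues whose gene responds to thyroid hormone, carbohydrate and insulin.

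The promoter-proximal sequences of 6 windows are shown because they belong to the genes of both transcription factors, to the synthase, whose profile over the livers was close to that of *Srebf1*, and to the 2 genes that fell. They were taken from RefSeq sequences of GRCm38.p6, in which 9 of the 10 genes had an entry; *Scd1* was not matched. The 250 bases before each annotated start were searched on both strands for the sterol regulatory element TCACNCCAC, the E-box CACGTG, the Y box CCAAT and the GC box GGGCGG. Capitals mark the first 3 of these motifs, and ATTGG is the Y box read on the other strand. The stretches of 100 bases, written 5′ to 3′ on the strand of the gene, are:

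Srebf1, first listed start, 180 to 81 bases upstream, chr11:60222662-60222761, minus strand: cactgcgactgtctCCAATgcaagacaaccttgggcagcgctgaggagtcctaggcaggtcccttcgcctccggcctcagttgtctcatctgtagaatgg

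Mlxipl, first listed start, 180 to 81 bases upstream, chr5:135106711-135106810, plus strand: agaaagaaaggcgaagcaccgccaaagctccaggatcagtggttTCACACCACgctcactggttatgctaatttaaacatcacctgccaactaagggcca

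Mlxipl, second listed start, 180 to 81 bases upstream, chr5:135089710-135089809, plus strand: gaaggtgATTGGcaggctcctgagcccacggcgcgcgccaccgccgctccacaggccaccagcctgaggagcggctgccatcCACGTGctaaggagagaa

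Fasn, 100 to 1 bases upstream, chr11:120824548-120824647, minus strand: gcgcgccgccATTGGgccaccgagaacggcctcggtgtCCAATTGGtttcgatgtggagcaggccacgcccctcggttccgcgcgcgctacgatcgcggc

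Acacb, 100 to 1 bases upstream, chr5:114165418-114165517, plus strand: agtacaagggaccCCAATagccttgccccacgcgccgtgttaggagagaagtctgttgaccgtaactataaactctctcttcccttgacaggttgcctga

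Thrsp, 100 to 1 bases upstream, chr7:97417551-97417650, minus strand: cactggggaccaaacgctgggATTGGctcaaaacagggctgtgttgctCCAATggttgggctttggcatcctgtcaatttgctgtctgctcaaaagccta

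The Y box was present in 7 of the 13 windows of these genes, which belong to 6 genes, and in 33.8% of the 32851 windows of all genes. In *Fasn*, 2 of its Y boxes overlap as CCAATTGG. The GC box was in 5 of the 13 windows, of 4 genes, and in 32.7% of all windows. The sterol regulatory element was found in 1 of the 13 windows, of *Mlxipl*, against 1.05% of all windows, and the E-box CACGTG also only in *Mlxipl*, at its second listed start, against 6.02%. These matches describe letters in a window and say nothing on binding.

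The libraries held between 20872262 and 24747870 counts on genes per wild-type liver and between 23474693 and 30450057 per Ndrg3 LKO liver, so that 3 counts correspond to between 0.0985 and 0.144 CPM, counts scaled to a common library total. Levels are given as CPM after TMM normalization in edgeR unless stated otherwise, and SE is the standard error of a fitted log2 fold change. *Ndrg3* averaged 18.5 CPM in wild-type and 8.06 in Ndrg3 LKO livers (log2 fold change -1.20, SE 0.13, edgeR adjusted p = 3.9e-05). Ndrg3 LKO replicate 5 stood apart from the other Ndrg3 LKO livers. Its 20 most abundant genes took 26.6% of the counts, against 16.3 to 17.3% in Ndrg3 LKO replicates 1 to 4 and 26.2 to 28.0% in wild-type livers. Summed over 10 hepatocyte markers, the level was 151223 to 190306 CPM in wild-type livers. It was 44810 to 52186 CPM in Ndrg3 LKO replicates 1 to 4 and 164371 CPM in replicate 5. *Alb* alone made up 80485 to 115763 CPM, 20929 to 26338 CPM and 107850 CPM of these sums, in the same order. In replicate 5, *Apoa1*, *Apob*, *Trf*, *Fgb* and *Hnf4a* were below every wild-type liver, as in the other Ndrg3 LKO livers, and *Alb* and *Ttr* were within the wild-type range. Among these markers, 7 of the 9 tested fell in Ndrg3 LKO livers and none rose, where 23.0% of all genes tested fell and 25.6% rose. *Cps1* (log2 fold change 0.09, edgeR adjusted p = 0.770) and *Pck1* (-0.25, edgeR adjusted p = 0.442) did not pass the test. *Alb* was at -1.24 and *Hnf4a* at -1.58 on the log2 scale. *Ass1* had a level of only 0.14 to 1.74 CPM over all livers, under the filter, and was not tested. The reason for its low count was not examined. In bulk RNA, fewer cells of a type and less RNA per cell cannot be told apart. The main comparison holds all 10 livers, and values for the 9 livers without replicate 5 are given beside it. The study's legends for its RNA and metabolite figures count 5 wild-type and 4 Ndrg3 LKO livers, while its methods count 5 of each. Which Ndrg3 LKO liver the figures leave out is not stated in its text.

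Of the 10 lipogenic genes, 2 rose in Ndrg3 LKO livers, *Me1* and *Acaca*, and 2 fell, *Acacb* and *Thrsp* (quasi-likelihood test of edgeR, Benjamini-Hochberg adjusted over all 11208 genes tested, threshold 0.05). All 10 genes passed the filter on low counts, with 633 to 128210 counts per liver. Over all genes tested, 25.6% rose and 23.0% fell, so that 2 of 10 in each direction is near the background. The same 4 genes passed the test in the same directions without replicate 5, where 28.4% of 11446 genes rose and 27.2% fell. The median log2 fold change of the 10 genes was 0.04 in all 10 livers and -0.68 in the 9 livers, against 0.03 for all genes tested in either comparison.

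**Figure D1:**
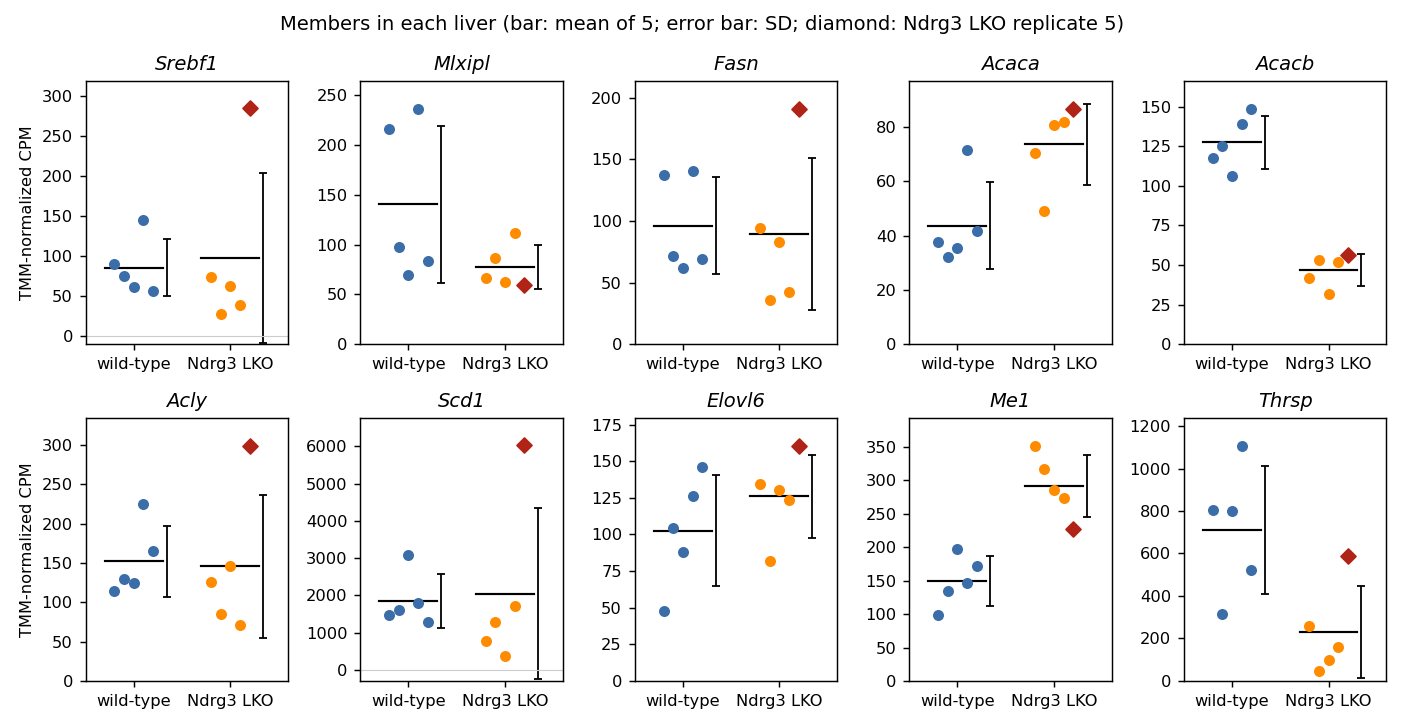
TMM-normalized CPM of each of the 10 lipogenic genes (vertical axes, linear, 1 scale per gene) in 5 wild-type livers (blue) and 5 Ndrg3 LKO livers (orange, with replicate 5 as a red diamond); the horizontal bar is the mean of 5 livers and the error bar beside it is the SD. *Acacb* and *Me1* separate the groups without overlap, and the diamond is the highest point of all 10 livers for 6 genes and the lowest for *Mlxipl*.

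*Srebf1* spans 60012591 to 60036083 on chromosome 11 of mm9, on the minus strand. It measured 89.1, 75.2, 61.2, 144.9 and 55.8 CPM in wild-type replicates 1 to 5 and 73.7, 26.9, 62.6, 38.9 and 284.6 CPM in Ndrg3 LKO replicates 1 to 5. Ndrg3 LKO replicate 5 was above every other liver, 5.63 times the mean of the other 4 Ndrg3 LKO livers, while replicates 2 and 4 were below every wild-type liver. In all 10 livers the log2 fold change was 0.19 (SE 0.55, edgeR adjusted p = 0.795), and without replicate 5 it was -0.77 (SE 0.33, edgeR adjusted p = 0.0649). Neither passed the test, and the direction turned on 1 liver. The counts cover the whole gene, so the 1a and 1c transcripts of *Srebf1* were not separated. *Srebf1* overlaps *Rai1* on the opposite strand, and the strand setting of the counting is not stated.

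*Mlxipl*, which encodes ChREBP, spans 135582761 to 135614254 on chromosome 5, on the plus strand. It stood at 216, 97.5, 69.3, 236 and 83.7 CPM in the wild-type livers and at 66.2, 86.7, 62.7, 112 and 60.0 CPM in the Ndrg3 LKO livers. Wild-type replicates 1 and 4 were above every Ndrg3 LKO liver, and the other 3 wild-type livers lay among them. The log2 fold change of -0.86 (SE 0.34) did not pass the test (edgeR adjusted p = 0.0564), nor did -0.79 without replicate 5 (edgeR adjusted p = 0.0828). The call depended on single livers: without wild-type replicates 2, 3 or 5 or Ndrg3 LKO replicate 4, one at a time, the value was between -1.05 and -0.98 and passed the test. Counts of the alpha and beta transcripts of *Mlxipl* were not separated either.

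*Acly* encodes ATP citrate lyase, which makes cytosolic acetyl-CoA (chromosome 11, minus strand, 100337667 to 100389314). Its levels were 115, 129, 125, 225 and 166 CPM in wild-type livers and 126, 85.4, 146, 70.9 and 299 CPM in Ndrg3 LKO livers. The groups overlapped, with Ndrg3 LKO replicate 5 the highest and replicates 2 and 4 the lowest of all. The log2 fold change was -0.06 in 10 livers (SE 0.35, edgeR adjusted p = 0.895) and -0.51 in 9 livers (SE 0.25, edgeR adjusted p = 0.0977).

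*Me1*, the gene of cytosolic malic enzyme, spans 86474970 to 86589947 on the minus strand of chromosome 9. It measured 99.0, 135, 197, 147 and 172 CPM in wild-type livers and 352, 317, 286, 274 and 228 CPM in Ndrg3 LKO livers. Every Ndrg3 LKO liver was above every wild-type liver, which held for 15.6% of all genes tested. The gene rose 1.94-fold (log2 fold change 0.96, SE 0.19, edgeR adjusted p = 0.00185). The 2-sided exact permutation test gave p = 0.00794, the smallest that 5 livers against 5 allow. Unlike *Srebf1*, *Fasn*, *Acly* and *Scd1*, *Me1* was lowest in replicate 5 among the Ndrg3 LKO livers, and without it the log2 fold change was 1.02. *Me1* overlaps the noncoding A330041J22Rik on the opposite strand.

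The 2 acetyl-CoA carboxylases moved in opposite directions. *Acaca* encodes the cytosolic enzyme whose malonyl-CoA feeds fatty acid synthesis, and *Acacb* encodes the enzyme of the outer mitochondrial membrane, whose malonyl-CoA inhibits fatty acid import for oxidation. *Acaca* (chromosome 11, plus strand, 83943174 to 84215153) measured 37.7, 32.2, 35.2, 71.3 and 41.8 CPM in wild-type livers and 70.2, 49.1, 80.5, 81.7 and 86.5 CPM in Ndrg3 LKO livers. Wild-type replicate 4 lay within the Ndrg3 LKO range, and the other 4 wild-type livers lay below it. *Acaca* rose 1.68-fold (log2 fold change 0.75, SE 0.23, edgeR adjusted p = 0.0166, exact permutation p = 0.0238), and by 0.68 on the log2 scale without replicate 5 (edgeR adjusted p = 0.0278). *Acacb* (chromosome 5, plus strand, 114596544 to 114700770) measured 118, 125, 106, 139 and 148 CPM in wild-type livers and 41.5, 53.2, 31.4, 51.8 and 56.0 CPM in Ndrg3 LKO livers. The highest Ndrg3 LKO value was under the lowest wild-type value, as for 15.9% of all genes tested, and replicate 5 lay with the others. *Acacb* was 2.72-fold lower (log2 fold change -1.44, SE 0.17, edgeR adjusted p = 6.9e-05, exact permutation p = 0.00794), and its value without replicate 5 was -1.53. Both genes overlap predicted genes on the opposite strand, *Gm11437* and *Gm17722* for *Acaca* and *Gm13784* for *Acacb*.

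*Fasn* is the gene of fatty acid synthase (chromosome 11, minus strand, 120667254 to 120685492). It measured 137, 71.4, 62.0, 141 and 69.2 CPM in wild-type livers and 94.5, 35.9, 83.1, 42.7 and 191 CPM in Ndrg3 LKO livers. Wild-type replicates 1 and 4 stood above the other wild-type livers, as they did for *Mlxipl*, and Ndrg3 LKO replicate 5 stood above all livers. The log2 fold change was -0.11 (SE 0.42, edgeR adjusted p = 0.850) in 10 livers and -0.60 (SE 0.34, edgeR adjusted p = 0.154) in 9 livers. Neither value passed the test, so no difference was detectable at this spread.

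*Elovl6* elongates palmitate to stearate (chromosome 3, plus strand, 129235304 to 129341413). It stood at 47.5, 104, 88.3, 127 and 146 CPM in wild-type livers and at 135, 82.0, 130, 123 and 160.5 CPM in Ndrg3 LKO livers. The lowest value was wild-type replicate 1 and the groups overlapped, with log2 fold changes of 0.30 in 10 livers (SE 0.27, edgeR adjusted p = 0.375) and 0.18 in 9 livers. *Scd1* encodes the desaturase that makes oleate and palmitoleate (chromosome 19, minus strand, 44468941 to 44482199). It measured 1485, 1610, 3094, 1787 and 1291 CPM in wild-type livers and 786, 1299, 382, 1715 and 6043 CPM in Ndrg3 LKO livers. Ndrg3 LKO replicate 5 was 5.78 times the mean of the other 4 Ndrg3 LKO livers, and replicates 1 and 3 were below every wild-type liver. The log2 fold change of *Scd1* was 0.14 (SE 0.59, edgeR adjusted p = 0.859) in 10 livers and -0.84 (SE 0.39, edgeR adjusted p = 0.0848) in 9 livers.

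*Thrsp* spans 104561448 to 104566240 on chromosome 7, on the minus strand. It measured 804, 314, 802, 1106 and 524 CPM in wild-type livers and 260, 47.2, 97.8, 161 and 589 CPM in Ndrg3 LKO livers. Apart from replicate 5, which lay within the wild-type range, no Ndrg3 LKO liver reached the lowest wild-type liver. *Thrsp* was 3.08-fold lower in 10 livers (log2 fold change -1.62, SE 0.57, edgeR adjusted p = 0.0344, exact permutation p = 0.0238) and 5.06-fold lower in 9 livers (log2 fold change -2.34, SE 0.48, edgeR adjusted p = 0.00147). The call in 10 livers was lost when wild-type replicates 1, 3 or 4 or Ndrg3 LKO replicates 1, 3 or 4 were left out one at a time, with adjusted p between 0.0594 and 0.0766 and values between -1.66 and -1.43.

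**Figure D2:**
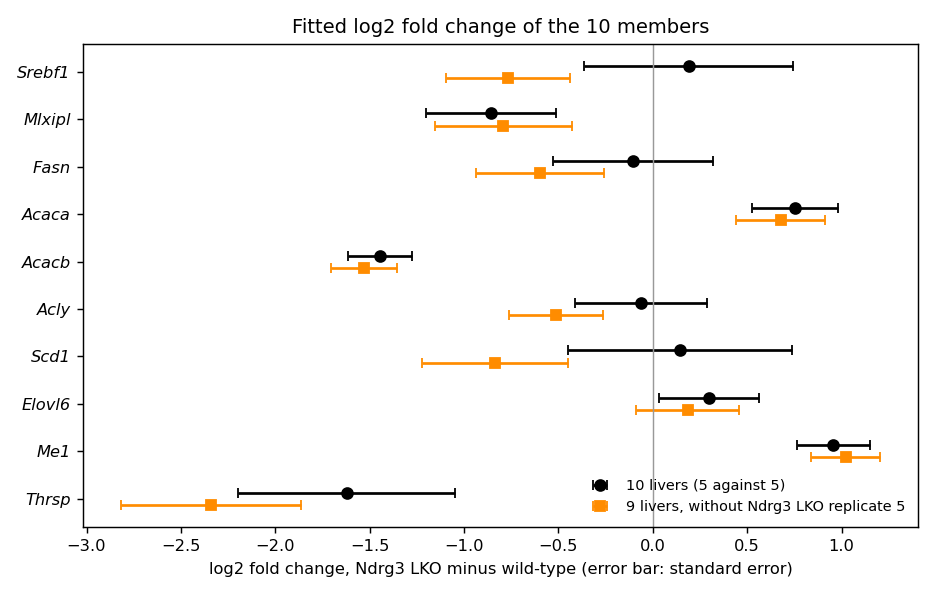
Fitted log2 fold change of each lipogenic gene, Ndrg3 LKO minus wild-type (horizontal axis), with the standard error as the bar, for all 10 livers (black circles) and for the 9 livers without Ndrg3 LKO replicate 5 (orange squares). *Acaca*, *Acacb* and *Me1* stay in place, while *Srebf1* goes from 0.19 to -0.77 and *Scd1* from 0.14 to -0.84.

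Ndrg3 LKO replicate 5 was the highest of the 10 livers for 6 of the 10 genes, *Srebf1*, *Fasn*, *Acaca*, *Acly*, *Scd1* and *Elovl6*, while it was the highest for 11.9% of all genes tested. It was the lowest for *Mlxipl* alone, against 11.8% of all genes. Relative to the range of the 5 wild-type livers, 7 genes were above it in replicate 5, 2 were below it and 1 was within it. In Ndrg3 LKO replicates 1 to 4, 1 or 2 genes were above the wild-type range and 4 or 5 below it. *Srebf1* and *Mlxipl* were thus at opposite ends in this liver, *Srebf1* at 3.34 times and *Mlxipl* at 0.427 times the wild-type mean. The adipocyte markers *Adipoq*, *Lep*, *Retn*, *Plin1* and *Cfd* were at 0 in this liver. This was not particular to it, since *Lep* was at 0 in every wild-type liver, and Ndrg3 LKO replicate 4 was at 0 for *Adipoq*, *Lep*, *Retn* and *Plin1*. *Adipoq* and *Cfd* were highest in wild-type replicate 4 (1.56 and 7.67 CPM) and in Ndrg3 LKO replicates 1 (1.81 and 10.7 CPM) and 2 (5.02 and 21.9 CPM). Summed over 6 adipocyte markers, the level was 0.848 CPM in replicate 5, 1.47 to 31.8 CPM in the other Ndrg3 LKO livers and 1.56 to 14.1 CPM in wild-type livers.

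Ratios of counts within a liver do not depend on the library size, and 5 of them were compared, with p-values from 2-sided exact permutation tests adjusted over the 5. The mean log2 ratio of *Acaca* to *Acacb* counts was -1.60 ± 0.38 (SD, n = 5) in wild-type and 0.66 ± 0.53 (SD, n = 5) in Ndrg3 LKO livers. Wild-type livers ran from -1.96 to -0.96 and Ndrg3 LKO livers from -0.12 to 1.36, so the groups did not overlap. The difference of 2.25, or 4.77-fold, had an exact permutation p of 0.00794 (adjusted p = 0.0397), and without replicate 5 it was 2.26. In 4 of 5 Ndrg3 LKO livers, *Acaca* had more counts than *Acacb*, and in no wild-type liver.

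The log2 ratio of *Fasn* to *Acaca* averaged 1.11 ± 0.45 (SD, n = 5) in wild-type and 0.05 ± 0.80 (SD, n = 5) in Ndrg3 LKO livers. Ndrg3 LKO replicates 1 to 4, from -0.93 to 0.43, were below every wild-type liver, the lowest of which was at 0.73, and replicate 5 was at 1.14. The difference of -1.06 had an exact permutation p of 0.0397 and did not pass after adjustment (adjusted p = 0.0992). Without replicate 5 the difference was -1.34 and passed (exact permutation p = 0.00794, adjusted p = 0.0198). The other 3 ratios did not pass the test with or without replicate 5. The ratio of *Scd1* to *Elovl6* differed by -0.78 on the log2 scale (exact permutation p = 0.333), that of *Mlxipl* to *Srebf1* by -0.46 (exact permutation p = 0.627) and that of *Srebf1* to *Srebf2* by 0.32 (exact permutation p = 0.619). In replicate 5, the log2 ratio of *Mlxipl* to *Srebf1* was -2.25, while the other 9 livers lay between -0.15 and 1.69.

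**Figure D3:**
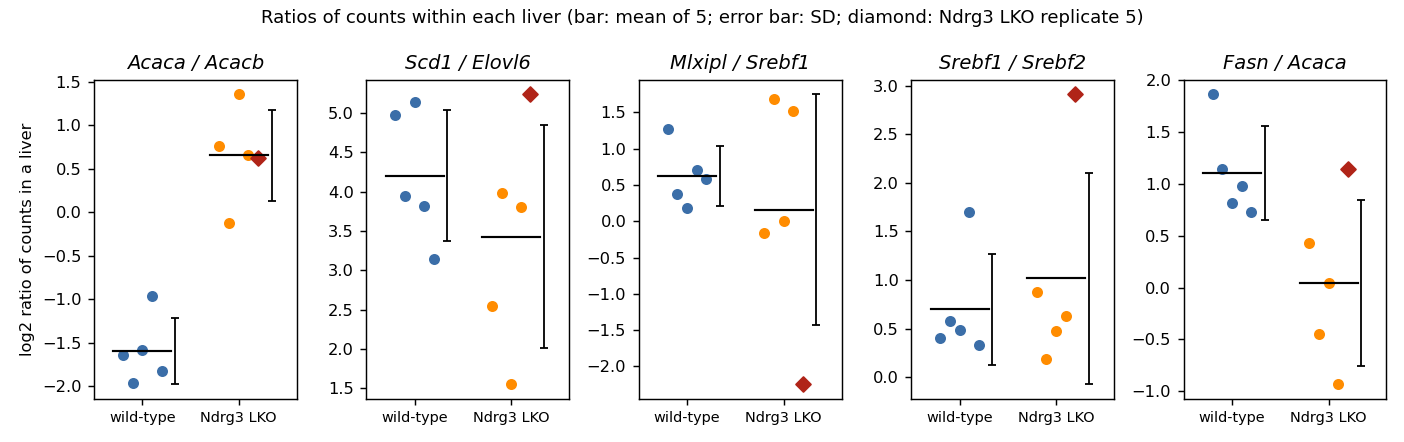
Log2 ratio of the counts of 2 genes within each liver (vertical axes, 1 scale per ratio) for 5 wild-type livers (blue) and 5 Ndrg3 LKO livers (orange, with replicate 5 as a red diamond); bars are means of 5 livers and error bars the SD. The groups are apart for *Acaca* to *Acacb*, by 2.25, and the diamond lies away from the other livers for *Mlxipl* to *Srebf1* and *Srebf1* to *Srebf2*.

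The 10 genes spanned a wide range of abundance. Per kilobase of exon, *Thrsp* had the highest level in wild-type livers, 556 ± 237 CPM per kb (SD, n = 5), followed by *Scd1* at 383 ± 148 CPM per kb (SD, n = 5). The ranges of these 2 genes overlapped, and both were above the remaining 8. *Me1* came next at 42.0 ± 10.4 CPM per kb, then *Acly* at 28.8 ± 8.57, *Mlxipl* at 26.2 ± 14.7 and *Elovl6* at 17.2 ± 6.36 CPM per kb. The lowest were *Srebf1* at 15.1 ± 6.35, *Acacb* at 13.2 ± 1.75, *Fasn* at 9.76 ± 4.0 and *Acaca* at 4.29 ± 1.56 CPM per kb (SD, n = 5 for each). From *Me1* downwards, each gene's range overlapped that of the next. In Ndrg3 LKO livers *Acaca* averaged 7.22 and *Acacb* 4.86 CPM per kb, the reverse of their order in wild-type livers. Lengths are unions of all annotated exons, which overstates the length of a gene with many alternative exons.

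Other genes of the pathway were taken from 7 lists with 68 entries, of which 64 passed the filter, 15 rose and 14 fell in 10 livers, near the 25.6% and 23.0% of all genes. In 9 livers 17 rose and 21 fell, where 28.4% and 27.2% of all genes did. In the first list, 12 genes that activate SREBP1 or act with it, 5 fell and 1 rose in 10 livers (background 23.0% and 25.6%), with a median log2 fold change of -0.34, and 6 fell and 1 rose in 9 livers (background 27.2% and 28.4%). *Insig2*, which holds the SREBP precursor in the endoplasmic reticulum, fell by 1.37 on the log2 scale (edgeR adjusted p = 0.00154), with -1.49 in 9 livers. *Scap*, the escort of SREBP to the Golgi, fell by 0.66 (edgeR adjusted p = 0.0123), and *Nr1h3*, the gene of LXR alpha, fell by 0.60 (edgeR adjusted p = 0.00730). *Srebf2*, the sterol-regulated sister of *Srebf1*, fell by 0.54 (edgeR adjusted p = 0.0406). *Srebf2* lost its call without wild-type replicates 1 or 2 or Ndrg3 LKO replicates 2 or 4, with values of -0.56 to -0.43. The gene that rose was *Usf2*, named after its value was seen. It was at 0.48 without overlap of the groups (edgeR adjusted p = 0.00431), and at 0.51 in 9 livers. In this list, as for the hepatocyte markers *Alb* and *Ttr*, replicate 5 was close to the wild-type livers for *Scap* (94.6 CPM) and *Nr1h3* (118 CPM). The wild-type means were 98.0 and 124 CPM, and those of Ndrg3 LKO replicates 1 to 4 were 54.2 and 72.9 CPM. Without replicate 5, *Scap* was at -0.87 and *Nr1h3* at -0.78. Library-size scaling ended the calls of *Scap*, *Nr1h3* and *Srebf2*, with *Scap* at -0.18, *Nr1h3* at -0.11 and *Srebf2* at -0.02. The part of hepatocyte RNA content in these values was not tested.

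*Insig1* and *Acss2* were chosen after their values were seen. *Insig1*, a target of SREBPs that restrains them, measured 188 to 218 CPM in wild-type livers and 77.2, 15.2, 21.7, 24.8 and 308 CPM in Ndrg3 LKO livers. *Acss2*, which makes acetyl-CoA from acetate, measured 92.6 to 130 CPM in wild-type livers and 37.0, 21.2, 23.1, 27.8 and 158 CPM in Ndrg3 LKO livers. For both, Ndrg3 LKO replicates 1 to 4 were below and replicate 5 above every wild-type liver. *Insig1* did not pass in 10 livers (-1.18, edgeR adjusted p = 0.180) and passed in 9 (-2.55, edgeR adjusted p = 2.9e-04). With limma on log2(CPM + 1) it also passed in all 10 livers (-2.11, limma adjusted p = 0.0166). *Acss2* likewise went from -1.06 (edgeR adjusted p = 0.0972) to -2.04 (edgeR adjusted p = 3.8e-06), and passed in 10 livers with limma (-1.51, limma adjusted p = 0.0135).

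Of 13 partners of ChREBP and sugar-responsive genes, 3 rose and 3 fell in 10 livers (background 25.6% and 23.0%), and the median log2 fold change was -0.31. In 9 livers 3 rose and 5 fell (background 28.4% and 27.2%), among them *Mlx* (-0.46), the ChREBP partner, named after its value was seen. *Txnip*, a ChREBP target that limits glucose uptake, fell by 1.86 on the log2 scale (edgeR adjusted p = 0.00128). Wild-type replicate 4, at 75.2 CPM, was the only wild-type liver within the Ndrg3 LKO range of 35.4 to 87.3 CPM for *Txnip*, and the others lay from 231 to 326 CPM. *Khk*, which phosphorylates fructose, fell by 1.03 without overlap of the groups (edgeR adjusted p = 0.00128). *Arrdc4*, a relative of *Txnip*, rose from 5.46 ± 0.48 (SD, n = 5) to 10.7 CPM (log2 fold change 0.97, edgeR adjusted p = 3.99e-04), also without overlap. In 9 livers *Txnip* was at -1.72, *Khk* at -1.11 and *Arrdc4* at 0.98. *Pklr*, the gene of liver pyruvate kinase, was at 288 CPM in wild-type and 172 CPM in Ndrg3 LKO livers and did not pass the test (-0.74, edgeR adjusted p = 0.124). Its lowest value, 56.6 CPM, was in replicate 5, where *Mlxipl* was also lowest.

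Among 10 other lipid synthesis genes linked to SREBP1, of which 8 were tested, 1 rose and none fell in 10 livers (background 25.6% and 23.0%). In 9 livers 1 rose and 2 fell (background 28.4% and 27.2%), *Acss2* and *Fads1* (-0.73, edgeR adjusted p = 0.0443), a desaturase gene named after its value was seen. The gene that rose was *Scd2*, a paralogue of *Scd1*, at 1.37 to 2.53 CPM in wild-type livers and 5.69 to 13.3 CPM in Ndrg3 LKO replicates 1 to 4, with 63.6 CPM in replicate 5. Its log2 fold change was 3.30 in 10 livers and 2.15 in 9 livers (edgeR adjusted p = 0.00195 and 1.13e-04). *Scd1* exceeded *Scd2* by far in every liver, and reads that the 2 genes share could be split between them, so the value of *Scd2* is uncertain.

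Of 8 genes of citrate export and NADPH supply, 7 were tested, 3 rose and 1 fell in 10 livers, and 4 rose and 1 fell in 9 livers (backgrounds as above). *Idh1*, the cytosolic NADP-dependent isocitrate dehydrogenase, fell by 1.17 on the log2 scale (edgeR adjusted p = 0.0124), with replicate 5 at 508 CPM within the wild-type range of 451 to 607 CPM and replicates 1 to 4 from 137 to 260 CPM. Without replicate 5 *Idh1* was at -1.64. *G6pdx* and *Pgd*, the dehydrogenases of the pentose phosphate pathway, rose by 1.10 (edgeR adjusted p = 0.0329) and 0.69 (edgeR adjusted p = 0.0134). *G6pdx* was low, at 1.34 to 3.03 CPM in wild-type livers, and its highest value, 11.0 CPM, was Ndrg3 LKO replicate 3. The call of *G6pdx* was lost without wild-type replicates 2, 3 or 5 or Ndrg3 LKO replicates 1 or 3, and without replicate 3 its value was 0.60.

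Fatty acid elongation held the largest change of all list genes. Of its 10 genes, 9 were tested, 2 rose and 2 fell in 10 livers (background 25.6% and 23.0%). In 9 livers 2 rose and 4 fell (background 28.4% and 27.2%), with *Elovl2* (-0.39) and *Tecr* (-0.69) added, both named after their values were seen. *Elovl3*, an elongase of saturated and monounsaturated very long chains, measured 1136, 730, 1095, 389 and 549 CPM in wild-type livers and 45.2, 19.3, 3.29, 44.7 and 2.83 CPM in Ndrg3 LKO livers. All Ndrg3 LKO livers, replicate 5 included, were far below all wild-type livers, and the log2 fold change was -5.08 (SE 0.80, edgeR adjusted p = 4.26e-04), with -4.81 in 9 livers. *Elovl1* rose by 0.76 without overlap of the groups (edgeR adjusted p = 0.00213), and *Ptplb*, a 3-hydroxyacyl-CoA dehydratase, fell by 0.55 (edgeR adjusted p = 0.00281).

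In the list on the control of acetyl-CoA carboxylase, 3 of 9 genes rose and 1 fell, in 10 as in 9 livers (backgrounds as above). *Mid1ip1*, a paralogue of *Thrsp* whose protein promotes the polymerization of acetyl-CoA carboxylase, measured 16.1, 10.9, 11.2, 15.6 and 14.8 CPM in wild-type livers and 78.4, 30.2, 71.8, 64.1 and 61.3 CPM in Ndrg3 LKO livers. It rose 4.46-fold without overlap of the groups (log2 fold change 2.16, SE 0.24, edgeR adjusted p = 4.3e-05; 2.14 in 9 livers), while its paralogue *Thrsp* fell. *Stk11*, the gene of the kinase LKB1, fell by 0.46 (edgeR adjusted p = 0.0217), and *Prkag1*, an AMPK subunit, rose by 0.38 (edgeR adjusted p = 0.0132). *Stk11* lost its call without wild-type replicate 2 or Ndrg3 LKO replicate 3 and was at 0.040 with library-size scaling.

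Of 6 genes of thyroid hormone response, 2 rose and 2 fell in 10 livers, and 3 rose and 2 fell in 9 livers (backgrounds as above). *Dio1*, which converts thyroxine to its active form, measured 189 to 338 CPM in wild-type livers and 14.3, 3.01, 15.0, 3.93 and 35.4 CPM in Ndrg3 LKO livers, and fell by 4.14 on the log2 scale without overlap (SE 0.61, edgeR adjusted p = 2.73e-04), with -4.80 in 9 livers. *Gpd2*, the mitochondrial glycerol-3-phosphate dehydrogenase, rose by 1.09 (edgeR adjusted p = 0.0171), although replicate 5 was below every wild-type liver at 15.7 CPM and the exact permutation p was 0.0714. Without replicate 5 it was at 1.31. *Thrb*, the main thyroid hormone receptor of hepatocytes, fell by 0.49 (edgeR adjusted p = 0.0334), a call lost without wild-type replicates 1, 3 or 4 or Ndrg3 LKO replicates 1 or 4, and it was at 0.050 with library-size scaling.

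**Figure D4:**
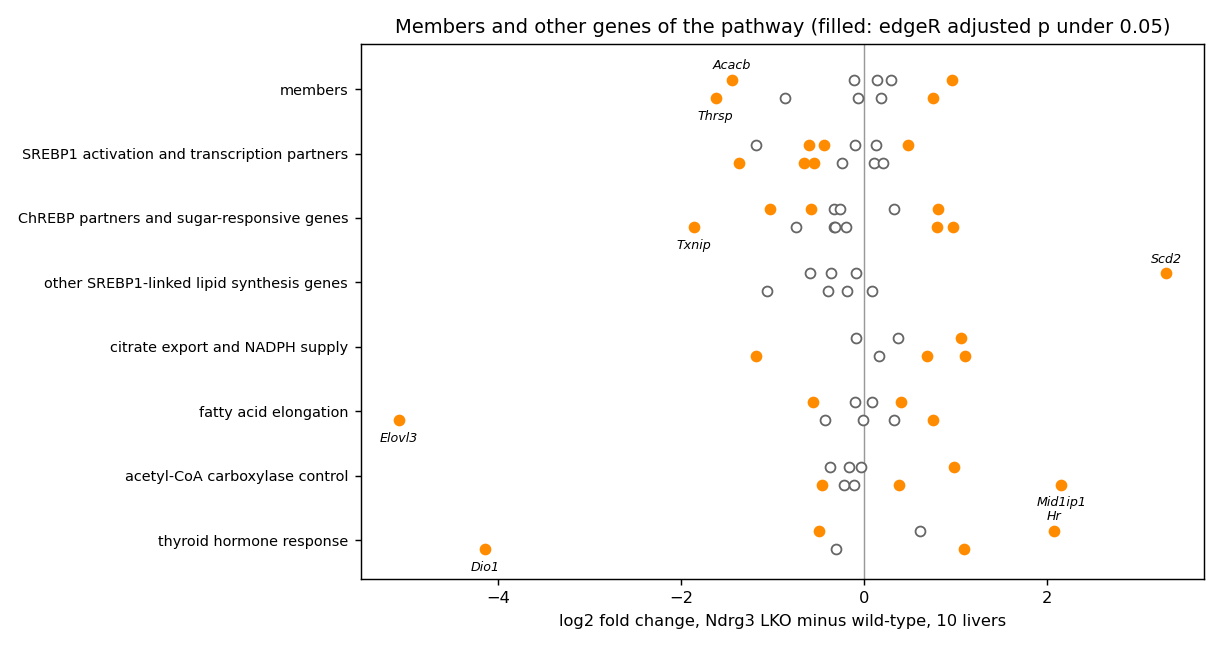
Log2 fold change in 10 livers, Ndrg3 LKO minus wild-type (horizontal axis), of the 10 lipogenic genes and of the tested genes of 7 pathway lists (rows); filled points passed edgeR's test at an adjusted p of 0.05, open points did not, and points are staggered for legibility. Each list holds points on both sides of 0, and genes beyond 1.4 in size that passed the test carry their names, from *Elovl3* at -5.08 to *Scd2* at 3.30.

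Genes whose profile over the 10 livers was nearest to that of 4 lipogenic genes were sought among 7157 genes with a mean of at least 10 CPM, by the root mean square difference of log2(CPM + 1) after centring each gene on its mean. *Srebf1* was nearest to *Dhcr7*, which encodes an enzyme of cholesterol synthesis, at 0.306 log2 units and then to *Fasn* at 0.323 log2 units. *Fasn* was nearest to *Dhcr7* at 0.286, *Srebf1* at 0.323 and *Frmd4b* at 0.352 log2 units. For *Mlxipl* the 3 nearest were *Zswim8*, *Firre* and *Khnyn*, between 0.288 and 0.308 log2 units, and none of them is a lipogenic gene of the lists. For *Thrsp* they were *Tk1*, *Pcsk4* and *Cmah*, at 0.443 to 0.547 log2 units, farther away than for the other 3 genes. *Thrsp* also varied more around its own mean, with a root mean square of 1.39 log2 units, against 0.887 for *Srebf1*, 0.716 for *Fasn* and 0.666 for *Mlxipl*. The distances were not scaled to this spread, so they do not rank how isolated the profiles are. The lists of *Srebf1* and *Fasn* share *Dhcr7*, and the livers behind all these distances are the same 10.

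All 6 Kupffer cell markers, 5 of 6 endothelial markers and 4 of 6 stellate cell or fibroblast markers rose in Ndrg3 LKO livers. None of these markers fell, and over all genes tested 25.6% rose and 23.0% fell. Of the cholangiocyte markers, 5 of 6 were tested, 1 rose and 1 fell, near these shares, and no lymphocyte marker passed the filter. The summed Kupffer cell markers reached 68.0 to 178 CPM in wild-type livers, 155 to 506 CPM in Ndrg3 LKO replicates 1 to 4 and 210 CPM in replicate 5. The summed endothelial markers were at 50.3 to 65.8 CPM, 110 to 141 CPM and 103 CPM in the same order. The summed stellate cell or fibroblast markers were at 109 to 173 CPM, 235 to 305 CPM and 234 CPM. The part of the cell composition in the values of *Me1*, *Acaca*, *Acacb* and *Thrsp* was not tested.

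The scale of the comparison moved some of these values. Scaling by library size alone moved the all-gene median, on the log2 scale, from 0.03 to 0.56 and the share of rising genes among all calls from 52.6% to 85.2%. Under it *Me1*, *Acaca* and *Elovl6* rose and *Acacb* and *Thrsp* fell, and the median of the 10 lipogenic genes was 0.41, below the median of all genes. *Acaca*, *Acacb* and *Me1* passed the test in the same direction in all 22 alternative settings.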

How the data were processed

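RNA sequencing of 10 livers was analysed. The authors prepared libraries with a stranded mRNA kit, mapped paired reads to mm9 and counted them per gene with STAR; the submitters' processing notes name Trim Galore 0.6.4, STAR 2.7.3a and Cufflinks 2.2.1, while the methods name an earlier STAR. The deposited values are raw counts per gene symbol, although the file labels say CPM: all are whole numbers and their totals differ between livers. The annotation and strand setting of the counting are not given in the sources used here. The members and lists were chosen with earlier results of these data known.

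The filter kept genes reaching 1 CPM in 5 or more livers (4 when a liver was left out), which were tested with edgeR 4.0.16 in R 4.3.3 (TMM, quasi-likelihood test, Benjamini-Hochberg over all genes, threshold 0.05), as Ndrg3 LKO minus wild-type. DESeq2 1.42.0, limma 3.58.1 with pseudocounts of 1, 0.1 and 5, other scalings and filters, the replicate number as a block and each liver left out were alternatives. Levels between genes were divided by exon length (GENCODE, NCBIM37, which is mm9), where 20945 of 24052 symbols were found. Of the symbols, 25 look like dates and 6306 had 0 counts in all livers. All 10 lipogenic genes are named, with up to 3 called genes per list with the largest change and a mean of at least 5 CPM in the higher group, plus *Srebf2* and *Pklr*; some results that this rule covers are not reported here; *Insig1*, *Acss2* and the replicate 5 comparison were chosen after values were seen. Exact permutation tests used all 252 ways to divide 10 livers. The scripts were tested on simulated data. Pairs of livers within a group exceeded sampling noise (20 pairs, chi-square per degree of freedom 27.5 to 479). Whether the livers came from separate litters is not stated, and p-values measure the spread between these livers. The 3-count floor covers counting error only, since the reads have no molecular identifiers.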

Additional observations from a re-analysis of the deposited data

Results flagged for a closer look

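In 30 groups of 5 livers, each a lipogenic gene or ratio in 1 genotype, 6 had a liver whose gap to its nearest neighbour took more than 0.71 of the whole range, the 95% critical value for 5 samples. For independent groups of normally distributed values, chance alone gives about 1 in 20. The 30 groups share livers and the ratios reuse the same genes, and normality was not tested. The count of 6 therefore cannot be set against that share. *Srebf1* in Ndrg3 LKO replicate 5 stood at 284.6 CPM, above 26.9 to 73.7 CPM in the other 4 livers. *Scd1* in the same liver stood at 6043 CPM, and the other 4 lay from 382 to 1715 CPM. The log2 ratio of *Srebf1* to *Srebf2* counts in that liver was 2.911, above 0.19 to 0.88 in the others. The hepatocyte marker sum of this liver was 164371 CPM, within the wild-type range, of which *Alb* made up 107850 CPM, while *Apoa1*, *Apob*, *Trf*, *Fgb* and *Hnf4a* were below every wild-type liver. The part of this in the 3 values was not tested. Among wild-type livers, *Acaca* in replicate 4 was at 71.34 CPM, *Scd1* in replicate 3 at 3094 CPM and the log2 ratio of *Srebf1* to *Srebf2* in replicate 4 at 1.704.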

How the results depend on the processing

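Across 22 alternatives, *Acaca*, *Acacb* and *Me1* kept their direction and their call. *Thrsp* kept its direction in all and its call in 16, losing it in 6 fits that each left out 1 liver. *Mlxipl* kept its direction and passed the test in 5, with DESeq2 (adjusted p = 0.0266) and in 4 fits without 1 liver. Of the other pathway genes named, *Srebf2* kept its call in 14 of 22 alternatives, *Thrb* in 12, *Stk11* in 18 and *G6pdx* in 12 of 21, while *Insig1* and *Acss2* passed in 6. Library-size scaling also ended the calls of *Scap*, *Nr1h3* and *Ptplb*. *Elovl6* passed only with library-size scaling (0.79, adjusted p = 0.0190). Library-size scaling turned *Fasn* to 0.29, *Acly* to 0.35, *Stk11* to 0.0401 and *Thrb* to 0.0505. *Srebf1* turned to -0.24, -0.25 and -0.21 with limma and pseudocounts of 1, 0.1 and 5, to -0.17 after quantile normalization and to -0.33 with the replicate block. *Scd1* turned to -0.41, -0.42 and -0.41 with the 3 limma pseudocounts and to -0.42 with the block. The cause was not tested. Leaving out each liver in turn gave *Srebf1* from -0.77 to 0.45, *Fasn* from -0.60 to 0.092, *Acly* from -0.51 to 0.11 and *Scd1* from -0.84 to 0.41. Over the same fits, the lipogenic genes that fell numbered 1 to 3, and their median fold change ran from -0.68 to 0.18. The log2 ratio of *Mlxipl* to *Srebf1* ran from -0.84 to 0.14, that of *Srebf1* to *Srebf2* from -0.16 to 0.57 and that of *Fasn* to *Acaca* from -1.34 to -0.82. Requiring an absolute log2 fold change above 1 left 2301 genes in place of 5443 and 0 of the 2 rising lipogenic genes.

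Same-numbered livers did not deviate together (correlations of -0.357 to 0.0363 over genes). Differently numbered livers were not compared in this way, so the correlations cannot decide whether the numbers pair the livers. Blocking on the replicate number left 4412 genes past the test, *Me1*, *Acaca*, *Acacb* and *Thrsp* among them. The block ended the calls of *G6pdx* (adjusted p = 0.115), *Pgd* (0.0523), *Prkag1* (0.0722), *Thrb* (0.0623) and *Gpd2* (0.0618), and *Insig1* (-2.26, adjusted p = 0.0257) and *Acss2* (-1.59, adjusted p = 0.0151) passed. Paired by number, the difference of the *Acaca* to *Acacb* ratio was 2.25 (exact sign-flip test, adjusted p = 0.312, where the smallest unadjusted p that 5 pairs allow is 0.0625). The deposited counts limit these results by the spread of 5 livers per group and not by depth, since every lipogenic gene had at least 633 counts in each liver. Transcript variants, protein levels and fatty acids were not analysed here.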
